A study of Mus musculus with 9 samples.

Results

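The genes that flank Shmt1 on mouse chromosome 11 were followed as a group of 34 genes, taken from a list of neighbours on both sides of it. In the gene order of assembly GRCm38.p6, 14 of them lie on the centromeric side of Shmt1, ending with Smcr8, and 20 on the telomeric side, starting with Dhrs7b. The Affymetrix mouse array names 45 probe sets for 28 of these genes among its 22690 probe sets. Mief2, Smcr8, Adora2b, Ncor1, Pigl and Ubb have no probe set named here and were not analysed. Of the 45 probe sets, 28 probe sets of 21 genes were bright enough to be tested. Another 13 protein-coding genes lie between the outermost members and are not among the 34.

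RNA came from the proximal colon of 9 mice on a C57Bl/6 background, 3 cSHMT mutant, 3 cSHMT heterozygous and 3 wild-type, with 1 array per mouse. All mice, wild-type included, were 9 weeks old and had been weaned at 3 weeks onto a diet (AIN-93G) from which folate and choline were left out. The labels give the time on this diet as 6 weeks in one field and as 5 weeks in another. They state 10 generations of backcrossing, and give neither the nature of the Shmt1 mutation nor the strain in which it was made. Because the members lie beside Shmt1, their own alleles were largely inherited with it, so an effect of the mutation and an effect of linked alleles cannot be told apart in these groups. Tissue RNA also cannot tell fewer cells of a type from less RNA per cell.

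Shmt1 encodes the cytosolic serine hydroxymethyltransferase, which passes a carbon unit from serine to tetrahydrofolate. Its neighbours do not form a pathway. The human counterparts of part of this segment, RAI1 among them, lie in the stretch usually lost in Smith-Magenis syndrome, for which RAI1 is the main gene. The members include genes that act in transcription (Med9, Rai1, Ncor1, Usp22), in mitochondria (Atpaf2, Mief2, Tmem11) and in aldehyde and lipid metabolism (Aldh3a1, Aldh3a2, Dhrs7b). Others act in kinase signalling (Map2k3, Mapk7, Ulk2), in cilia (Drc3, B9d1) and in the ubiquitin system (Gid4, Ubb).

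On the Shmt1 probe set 1425177_at the signal was 116.9, 120 and 113.1 units in mutant colons, 297.9, 274.4 and 337 in heterozygous colons and 564.3, 575.7 and 644.1 in wild-type colons. The 3 genotypes did not overlap. On the other tested Shmt1 probe sets, 1425179_at and 1425178_s_at, all mutant arrays were below the rest, at 52.4% and 55.5% of wild-type, while heterozygous and wild-type arrays overlapped, and neither passed in mutant against wild-type colons in limma's test (adjusted p = 0.596 and 0.309). The dim 1422198_a_at was not tested; mutant colons stood there at 24.4% and heterozygous colons at 94.3% of wild-type. Signals are the linear values as deposited, while fold changes and tests used log2 values made equal in distribution between arrays. The arrays numbered 1 in each genotype had the highest ratios of 3' to 5' beta-actin signal, a measure of shortened RNA, between 4.45 and 5.02, against 2.52 to 3.75 in the other 6 arrays, and the arrays numbered 3 had the lowest ratio of their genotype. Markers of colon tissue were present. All 8 absorptive colonocyte and all 6 named goblet cell markers were bright enough to be tested, and the 4 named exocrine pancreas markers had mean signals of at most 4.9. Of the small intestine markers Apoa4 and Lct read 15.3 and 15.8 units on average, while Fabp6, an ileal bile acid carrier, read 3159.9.

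No member passed an adjusted p of 0.05 in any of the 3 comparisons of the fit with limma. In mutant against wild-type colons 0.0221% of all 13576 probe sets tested passed, that is 3, Shmt1 among them, and the smallest adjusted p of a member was 0.742. In heterozygous against wild-type colons 0.0% of all probe sets passed, with a smallest adjusted p of 0.547 among members. In mutant against heterozygous colons 0.0221% passed, and the smallest adjusted p of a member was 0.523.

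At the unadjusted level the members held larger shares than the whole array in both comparisons with wild-type, and a share near that of the array in mutant against heterozygous colons. An unadjusted p under 0.05 was reached by 5 of 28 member probe sets in mutant against wild-type colons, where 3.84% of all probe sets reached it. Of these 4 were higher, beside 1.92% of all, and 1 was lower, beside 1.92%. In heterozygous against wild-type colons 6 of 28 reached it, where 8.01% of all did, 3 higher (4.46% of all) and 3 lower (3.55% of all). In mutant against heterozygous colons 3 of 28 reached it, where 7.56% of all did, 2 higher (4.07% of all) and 1 lower (3.49% of all). As shares of the 28 these counts are 17.9%, 21.4% and 10.7%. They come from 9 probe sets of 7 genes: Tom1l2, Gid4, Flii, Dhrs7b, Tmem11, Mfap4 and B9d1. The comparisons share arrays, so their counts are not independent of each other, and Gid4 and Flii contribute 2 probe sets each. Without Gid4 the shares were 11.5%, 15.4% and 11.5% of 26 probe sets, in the same order. Members were chosen with earlier results of these data known, so these shares are no test of the members as a group.

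The count in mutant against wild-type colons was 8 without wild-type 1 and 9 with array weights, a setting in which arrays far from their group count for less. The count in heterozygous against wild-type colons was 3 without heterozygous 1 and 3 without heterozygous 2. That in mutant against heterozygous colons was 6 without mutant 3 and 2 without heterozygous 2. Shares of all probe sets at an unadjusted p under 0.05 are not given here for these settings. These counts therefore cannot be set beside the shares above. Arrays of the 2 genotypes did not overlap for 6 member probe sets of 5 genes in mutant against wild-type colons, where 8.42% of all probe sets did not overlap. For heterozygous against wild-type colons the count was 8, beside 14.7% of all, and for mutant against heterozygous colons 9, beside 12.4% of all.

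**Figure D1:**
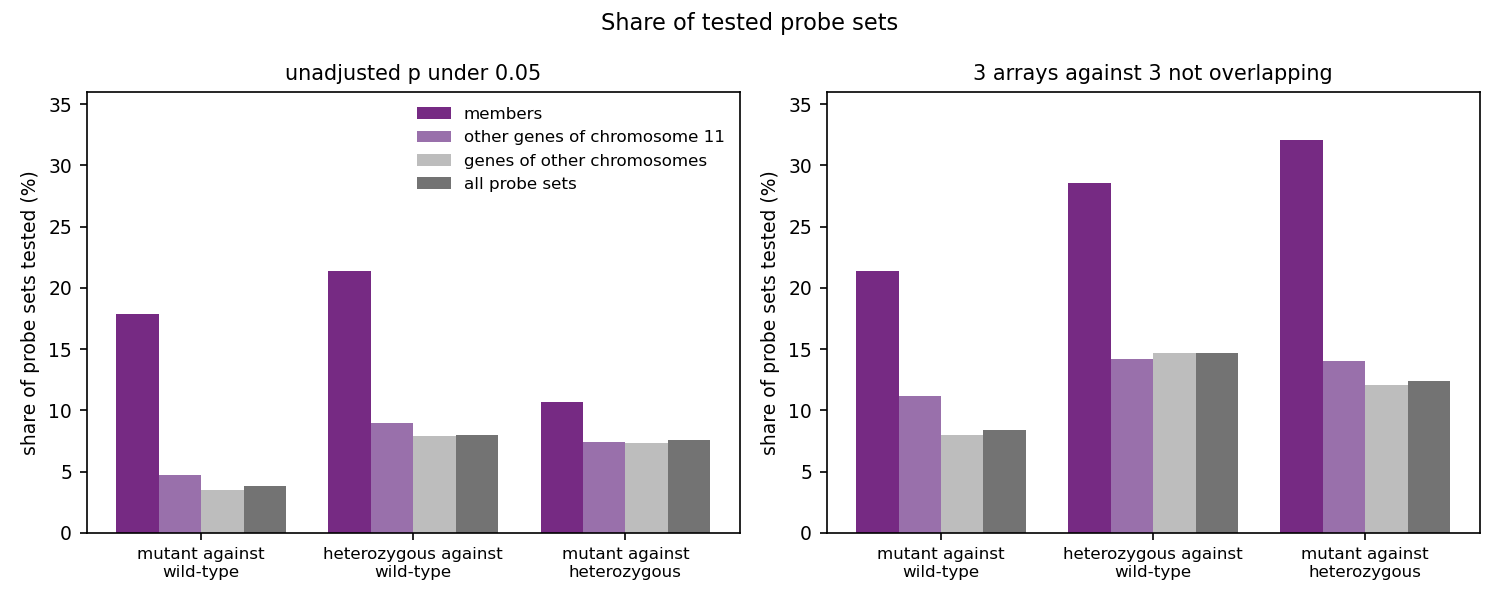
Share of tested probe sets, in percent on the y axis, with an unadjusted p under 0.05 (left) and with 3 arrays against 3 that do not overlap (right), for the 28 member probe sets, other genes of chromosome 11, genes of other chromosomes and all probe sets, in each comparison. The member bars are the tallest in all 6 sets of bars. In mutant against wild-type colons they stand at 17.9% and 21.4%, against 3.84% and 8.42% of all probe sets. Members were chosen with earlier results of these data known.

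The members did not shift together. In mutant against wild-type colons 12 of the 28 log2 fold changes were above 0 and 16 below it, with a median of -0.03 beside 0.0036 over all probe sets. Their median absolute log2 fold change was 0.16, against 0.09 over all probe sets and 0.09 over the other genes of chromosome 11. In heterozygous against wild-type colons 11 were above 0 and 17 below, with a median absolute value of 0.12 beside 0.11 over all probe sets, and on the values as deposited 14 lay on each side. In mutant against heterozygous colons 18 were above 0 and 10 below, with a median of 0.11 beside 0.0013 over all. The heterozygous mean lay between the mutant and the wild-type mean in 9 of 28 member probe sets, or 32.1%, and in 26.8% of all probe sets; with 1 probe set a gene it was 6 of 21, or 28.6%. By side this held for 7 of 12 centromeric and 2 of 16 telomeric probe sets. Of the 6 tested probe sets of other genes between the members, 0 reached an unadjusted p under 0.05 in mutant against wild-type colons in limma's test, 1 in heterozygous against wild-type and 2 in mutant against heterozygous colons. Arrays of 2 of the 6 did not overlap in mutant against wild-type colons, a share of 33.3%. With only 6 probe sets, these values cannot show whether the members' shares are particular to them.

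**Figure D2:**
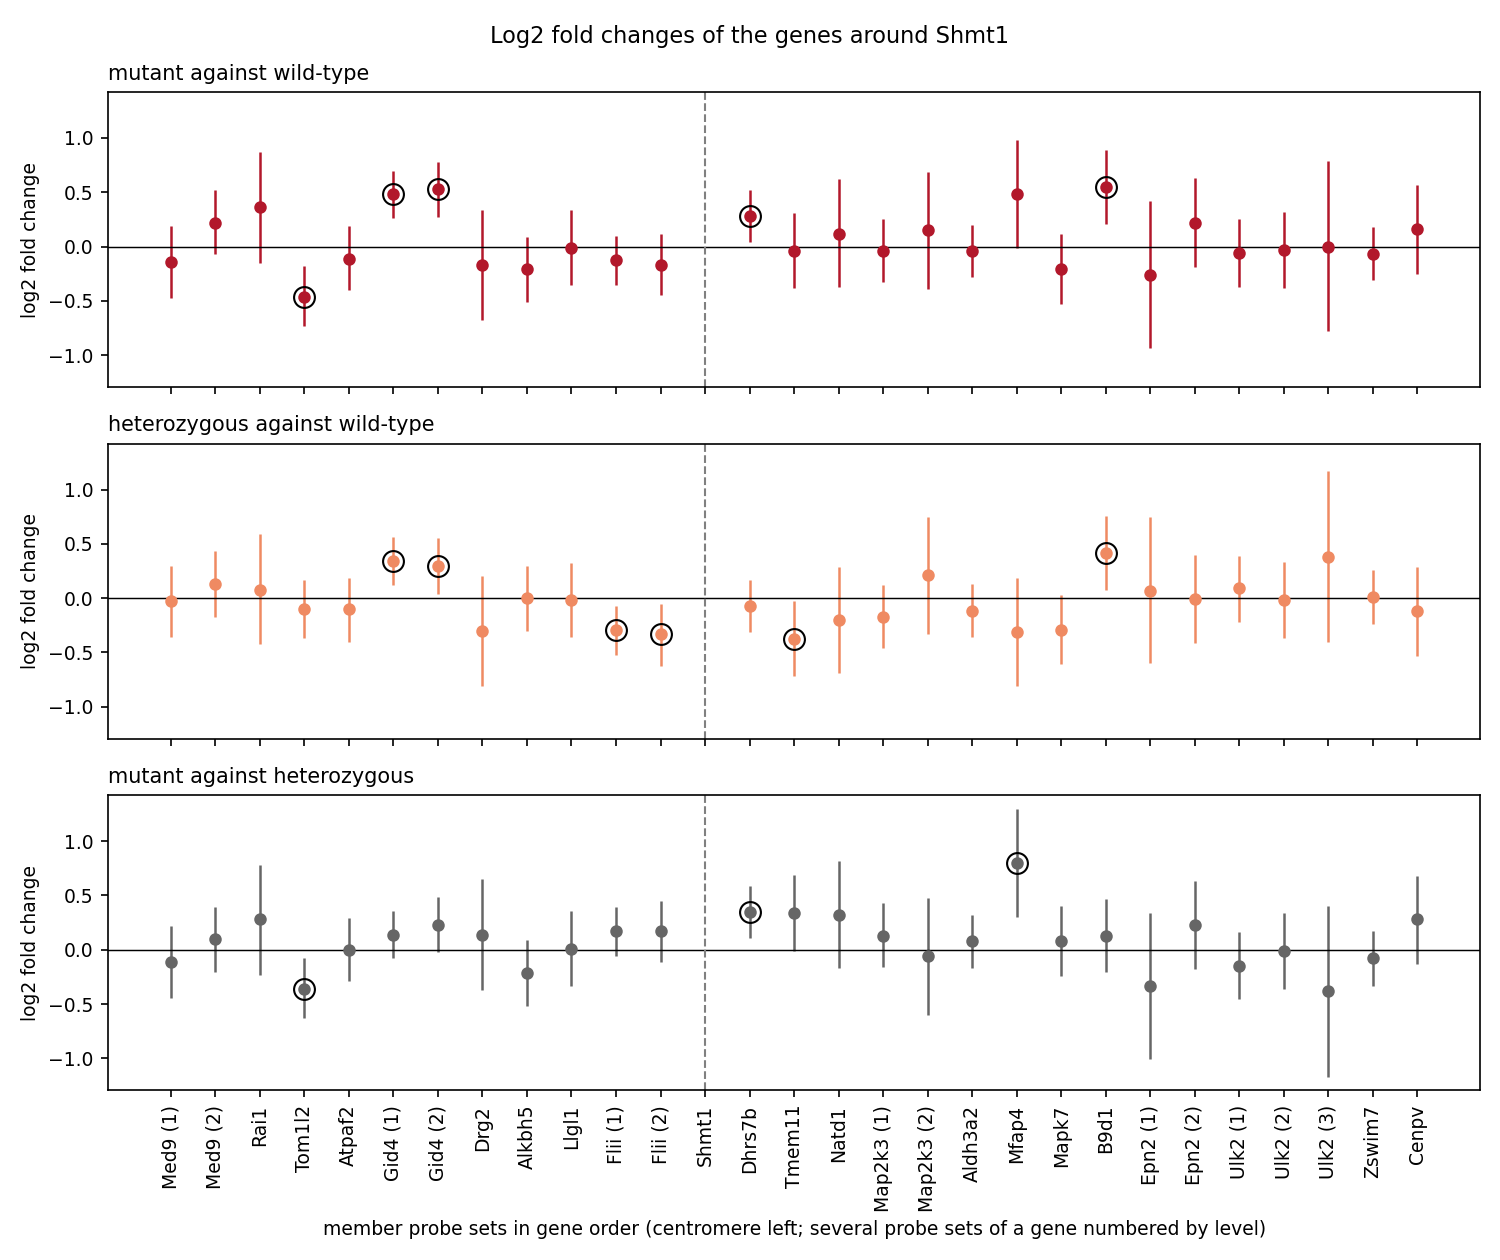
Log2 fold change (y axis) of each tested member probe set in gene order (x axis) for the 3 comparisons, with bars for the 95% interval from the fit; the dashed line marks the place of Shmt1 and open circles mark an unadjusted p under 0.05. In mutant against wild-type colons Gid4 and Tom1l2 stand apart from 0 on the centromeric side and Dhrs7b and B9d1 on the telomeric side, with unmarked probe sets between them.

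At the centromeric end, Med9, a subunit of the Mediator complex, was read by a pair of probe sets that differed. On 1419377_at it read 146.8, 152.5 and 164 units in mutant colons, 153.2, 140.1 and 151.5 in heterozygous and 126.9, 135.2 and 132.7 in wild-type colons. Each mutant and each heterozygous array was above the wild-type arrays in these values, with log2 fold changes of 0.22 (SE 0.135, unadjusted p = 0.126) in mutant and 0.13 in heterozygous colons. After normalization the mutant arrays were still above the wild-type arrays, while heterozygous 2 and heterozygous 3 lay below wild-type 1. On the brighter probe set 1449448_at the log2 fold change in mutant colons was -0.14. Rasd1, a small GTPase induced by glucocorticoids, averaged 67.03 units in mutant, 67.53 in heterozygous and 79.4 in wild-type colons and was too dim to be tested. Rai1 had a log2 fold change of 0.36 in mutant colons with a 95% interval from -0.15 to 0.87. Its mutant arrays read 139.6, 241.5 and 163, so that 1 array lay far above the other 2, against 149.4, 135 and 121.3 in wild-type colons. A dim probe set of Rai1, not tested, averaged 69.73 units in mutant, 54.13 in heterozygous and 74.8 in wild-type colons.

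Tom1l2, an adaptor of endosomal protein sorting, was the member with the lowest log2 fold change in mutant against wild-type colons. Its tested probe set 1437915_at read 117.5, 142.9 and 145.2 units in mutant colons, 167.7, 202.2 and 175.8 in heterozygous and 175.8, 203.3 and 199.7 in wild-type colons. All 3 mutant arrays lay below the 6 others, and heterozygous and wild-type arrays overlapped. The mean was 135.2 ± 15.4 in mutant and 192.9 ± 14.9 in wild-type colons (SD, n = 3 each), 70.1% of wild-type. The log2 fold change was -0.46 in mutant against wild-type colons (SE 0.125, unadjusted p = 0.00358, adjusted p = 0.998) and -0.36 in mutant against heterozygous colons (unadjusted p = 0.0153, adjusted p = 0.625). In limma's test this last value was -0.30 (unadjusted p = 0.0628) without heterozygous 2. It was -0.33 (unadjusted p = 0.0768) without the 3 arrays numbered 1. In heterozygous against wild-type colons the log2 fold change was -0.10, with an interval from -0.37 to 0.17. The other probe sets of Tom1l2 read at most 18.3 units in any array and disagreed in sign. Without the filter, one had a log2 fold change of 0.37 and the other -0.44 in mutant against wild-type colons.

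Tom1l2 starts head to head with Drc3, a subunit of the regulatory complex of motile cilia, with 475 bases between their starts. Drc3 averaged 20.9 units in mutant, 24.8 in heterozygous and 23.93 in wild-type colons, below the limit for testing. The window from 250 bases before to 50 after the Tom1l2 start (RefSeq, GRCm38.p6, chr11:60352856-60353155, minus strand) is shown because it faces that of Drc3, with the 26 bases that both windows hold in capitals.
Tom1l2: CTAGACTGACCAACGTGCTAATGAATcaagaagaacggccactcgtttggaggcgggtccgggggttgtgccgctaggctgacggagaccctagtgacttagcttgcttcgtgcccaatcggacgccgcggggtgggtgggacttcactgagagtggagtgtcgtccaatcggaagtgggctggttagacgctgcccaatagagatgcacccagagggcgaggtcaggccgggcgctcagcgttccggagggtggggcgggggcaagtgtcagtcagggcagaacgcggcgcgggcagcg
It holds 1 GC box (GGGCGG, either strand) and 3 CCAAT boxes (CCAAT, either strand).

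Gid4, the substrate receptor of an E3 ubiquitin ligase that in yeast marks gluconeogenic enzymes for degradation, had the smallest unadjusted p of the members. Its brightest probe set, 1427066_a_at, read 988.7, 1013.7 and 983.7 units in mutant colons, 853.1, 920.4 and 948.2 in heterozygous and 711.7, 681.8 and 728.2 in wild-type colons. No array of one genotype reached the values of another, and heterozygous colons lay between mutant and wild-type colons. Means were 995.4 ± 16.1, 907.2 ± 48.9 and 707.2 ± 23.5 (SD, n = 3 each) in mutant, heterozygous and wild-type colons, so mutant colons stood at 141% and heterozygous colons at 128% of wild-type. The log2 fold change was 0.48 in mutant (SE 0.101, unadjusted p = 0.000592, adjusted p = 0.742) and 0.34 in heterozygous against wild-type colons (SE 0.101, unadjusted p = 0.00637, adjusted p = 0.547). Between mutant and heterozygous colons it was 0.14, with an interval from -0.08 to 0.36.

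The next probe set of Gid4, 1438006_at, read 822.9, 864.1 and 819.9 units in mutant colons, 592, 747.3 and 806.2 in heterozygous and 548.3, 561.8 and 600.8 in wild-type colons. Mutant arrays were again above all others, while heterozygous 1 lay within the wild-type values as deposited. Its log2 fold change was 0.53 in mutant (SE 0.116, unadjusted p = 0.000809, adjusted p = 0.844) and 0.30 in heterozygous against wild-type colons (unadjusted p = 0.0266, adjusted p = 0.595). With array weights both probe sets passed in mutant against wild-type colons (adjusted p = 0.0265 for 1427066_a_at and 0.0439 for 1438006_at), and 1427066_a_at did so in heterozygous against wild-type colons (adjusted p = 0.0335). Under that setting 9 and 134 probe sets of the whole array passed. The SD within genotypes was 0.07 on the log2 scale on 1427066_a_at, at percentile 5.57 of the probe sets tested, and 0.11 on 1438006_at, at percentile 19.4. Without heterozygous 3 the heterozygous value on 1438006_at was 0.23 (unadjusted p = 0.106), and the p was also above 0.05 without heterozygous 2, wild-type 2 or wild-type 3.

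The other 5 probe sets of Gid4 were below the limit for testing, at mean signals between 15.8 and 62.7 units over all arrays, and did not share a direction. Without the filter their log2 fold changes in mutant against wild-type colons were 0.28, -0.13, -0.14, 0.41 and 0.49, the last on 1420662_at with 16.7, 26.9 and 20 units in mutant and 15.6, 7.7 and 8.2 in wild-type colons.

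**Figure D3:**
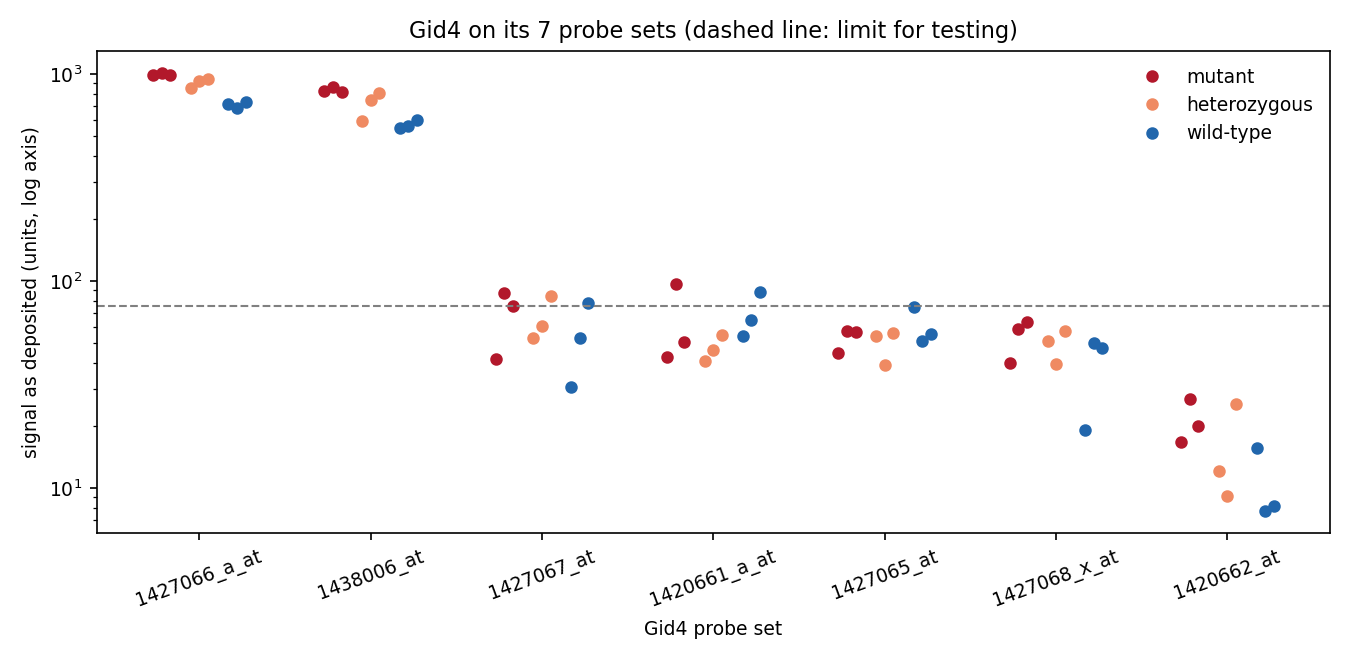
Deposited signal (y axis, log scale) on the 7 Gid4 probe sets (x axis) in each array, coloured by genotype; the dashed line is the limit for testing, a signal of 75.5. On the brightest probe set the genotypes form 3 separate groups with mutant highest, while on 4 of the 5 probe sets that were not tested mutant and wild-type arrays overlap. Those 5 have means below the line, and some of their arrays lie above it.

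Gid4 starts head to head with Atpaf2, which encodes an assembly factor of the mitochondrial ATP synthase, with 111 bases between their starts. Atpaf2 read 142, 146.3 and 182.6 units in mutant colons, 156.9, 152 and 175.1 in heterozygous and 131.7, 190.9 and 196 in wild-type colons. The 3 genotypes overlapped, and the log2 fold change was -0.11 in mutant (interval -0.40 to 0.19) and -0.10 in heterozygous against wild-type colons (interval -0.40 to 0.19). The start window of Gid4 (RefSeq, GRCm38.p6, chr11:60416895-60417194, plus strand) is shown because these neighbours share it; capitals mark the 210 bases that the window of Atpaf2 also holds.
Gid4: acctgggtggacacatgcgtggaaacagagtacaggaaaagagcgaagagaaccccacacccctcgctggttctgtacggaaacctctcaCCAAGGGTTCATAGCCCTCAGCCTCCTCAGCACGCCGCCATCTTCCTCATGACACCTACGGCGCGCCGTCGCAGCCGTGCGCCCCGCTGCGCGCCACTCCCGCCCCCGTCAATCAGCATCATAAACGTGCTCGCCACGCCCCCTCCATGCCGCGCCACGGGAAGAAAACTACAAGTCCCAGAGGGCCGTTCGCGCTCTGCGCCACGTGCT
It holds 1 GC box, 0 CCAAT boxes and 29 CpG pairs. Among the 30 start windows of the 27 members that RefSeq's table holds, 22 contain a GC box, or 73.3%, where 35.7% of all 32851 windows do; 13 contain a CCAAT box (43.3%, beside 37.4% of all) and 0 a TATAAA (beside 13.6% of all).

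Between Gid4 and Flii no tested member reached an unadjusted p under 0.05. Drg2, a GTP-binding protein, had a log2 fold change of -0.17 in mutant and -0.30 in heterozygous against wild-type colons. Its arrays read 183.6, 194 and 186.5 units in mutant, 186.4, 160.1 and 173.7 in heterozygous and 296.6, 211.1 and 158.6 in wild-type colons, so that the wild-type arrays spanned the range of both other genotypes. Alkbh5, which removes methyl groups from adenosine in RNA, was at -0.21 in mutant and 0.00 in heterozygous colons. Llgl1, a cell polarity protein, was at -0.01 and -0.02, with intervals no wider than -0.36 to 0.34.

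Flii, a gelsolin-related regulator of actin, read lower in heterozygous colons on both of its tested probe sets. On 1448189_a_at the signal was 1370.9, 1359.1 and 1289 units in mutant colons, 1105.1, 1263.6 and 1197.5 in heterozygous and 1635.3, 1362.3 and 1379 in wild-type colons. The heterozygous arrays lay below those of both other genotypes. The log2 fold change in heterozygous against wild-type colons was -0.29 (SE 0.102, unadjusted p = 0.015, adjusted p = 0.584), and on 1416044_at it was -0.33 (SE 0.128, unadjusted p = 0.0238, adjusted p = 0.584). On 1416044_at the arrays read 687.9, 711.5 and 764.6 in mutant, 546, 690.6 and 695.4 in heterozygous and 904.3, 788.9 and 743.2 in wild-type colons, where the heterozygous arrays lay below the wild-type arrays and overlapped the mutant ones. In mutant against wild-type colons the log2 fold changes were -0.12 and -0.17, with intervals from -0.35 to 0.10 and from -0.45 to 0.12. Both heterozygous values were closer to 0 without wild-type 1, at -0.21 (unadjusted p = 0.0692) and -0.22 (unadjusted p = 0.109). Without heterozygous 1 the unadjusted p was 0.0503 and 0.0875. Without all 3 arrays numbered 1, those with the highest beta-actin ratios, the values were -0.17 (unadjusted p = 0.171) and -0.15 (unadjusted p = 0.297). The dim probe set of Flii averaged 50.83 units in mutant, 55.9 in heterozygous and 52.6 in wild-type colons.

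Of Mief2, Top3a and Smcr8, which lie between Flii and Shmt1, only Top3a has a probe set named here. Top3a, a DNA topoisomerase that resolves recombination intermediates, read 36.8, 41.2 and 41.4 units in mutant colons, 45.3, 36.3 and 20.9 in heterozygous and 24.2, 23.9 and 31.6 in wild-type colons. The mutant arrays were above the wild-type arrays, but the probe set was too dim to be tested. Without the filter its log2 fold change in mutant against wild-type colons was 0.41 (unadjusted p = 0.0712).

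Dhrs7b, the nearest gene on the telomeric side, encodes a peroxisomal reductase of ether lipid synthesis. It read 1004.8, 1222.4 and 1043.9 units in mutant colons, 808.1, 897.5 and 839.5 in heterozygous and 868.8, 936.3 and 854.2 in wild-type colons on 1424869_at. All 3 mutant arrays were above the other 6, which overlapped each other. Means were 1090 ± 116 in mutant, 848.4 ± 45.4 in heterozygous and 886.4 ± 43.8 in wild-type colons (SD, n = 3 each). The log2 fold change was 0.28 in mutant against wild-type colons (SE 0.109, unadjusted p = 0.0248, adjusted p = 0.998) and 0.35 in mutant against heterozygous colons (SE 0.109, unadjusted p = 0.00776, adjusted p = 0.573). In heterozygous against wild-type colons it was -0.07, with an interval from -0.31 to 0.17. In mutant against wild-type colons the value was 0.20 (unadjusted p = 0.106) without mutant 2 and 0.23 (unadjusted p = 0.0877) without wild-type 3. The dim probe set of Dhrs7b averaged 13.07 units in mutant and 15.83 in wild-type colons.

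The start window of Dhrs7b (RefSeq, GRCm38.p6, chr11:60830381-60830680, plus strand) is shown as that of the closest telomeric neighbour. Its CCAAT box, here on the minus strand as ATTGG, is in capitals and lies among the 50 bases after the start.
Dhrs7b: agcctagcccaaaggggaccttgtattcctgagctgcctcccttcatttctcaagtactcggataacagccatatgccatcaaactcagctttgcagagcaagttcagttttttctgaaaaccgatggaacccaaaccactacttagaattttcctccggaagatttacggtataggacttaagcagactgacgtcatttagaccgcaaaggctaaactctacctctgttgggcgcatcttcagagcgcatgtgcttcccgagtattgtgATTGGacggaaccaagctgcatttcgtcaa
It holds 0 GC boxes and 11 CpG pairs.

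The next genes outward showed no such separation of mutant arrays. Tmem11, a mitochondrial membrane protein that shapes the organelle, read 329.6, 397.7 and 479.4 units in mutant colons, 286.7, 307.3 and 347.1 in heterozygous and 377.3, 518.9 and 344.4 in wild-type colons. Its log2 fold change was -0.04 in mutant (interval -0.38 to 0.31) and -0.38 in heterozygous against wild-type colons (SE 0.158, unadjusted p = 0.036, adjusted p = 0.601). Wild-type 2 was the highest of the 9 arrays, and without it the heterozygous value was -0.23 (unadjusted p = 0.177). The p was also above 0.05 without heterozygous 1, heterozygous 2 or wild-type 1. Without the 3 arrays numbered 1 the heterozygous value was -0.36 (unadjusted p = 0.119 in limma's test). With array weights it was -0.62 and passed (adjusted p = 0.0483).

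Natd1, which has an acetyltransferase domain, read 460, 555.1 and 343.6 units in mutant, 399.7, 342.3 and 318.2 in heterozygous and 464.9, 429.1 and 332 in wild-type colons, and the genotypes overlapped. Map2k3, a kinase that activates stress-activated MAP kinases, read 447.8, 526.9 and 571.1 in mutant, 468.5, 444.7 and 486.6 in heterozygous and 399.3, 597 and 596.8 in wild-type colons on 1451714_a_at. Their log2 fold changes in mutant against wild-type colons were 0.12 and -0.04, with intervals from -0.37 to 0.62 and from -0.33 to 0.25. The dimmer Map2k3 probe set 1425456_a_at had a log2 fold change of 0.15 (interval -0.39 to 0.69).

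Farther toward the telomere, Usp22, a deubiquitinase, Aldh3a1, an aldehyde dehydrogenase, and Slc47a1, a transporter that exports organic cations, were too dim to be tested. They averaged 34.1, 10.6 and 44.3 units in mutant, 39.93, 11.77 and 33.47 in heterozygous and 23.4, 17.73 and 39.47 in wild-type colons. Without the filter, limma gave Usp22 log2 fold changes of 0.44 in mutant (unadjusted p = 0.0859) and 0.52 in heterozygous against wild-type colons (unadjusted p = 0.0489, adjusted p = 0.688). Aldh3a2, the fatty aldehyde dehydrogenase, was the brightest member. It read 1576.4, 1787.8 and 1336 units in mutant colons, 1445.8, 1416.3 and 1525.2 in heterozygous and 1526.3, 1646.8 and 1541.3 in wild-type colons. Heterozygous arrays lay below wild-type arrays, by a log2 fold change of -0.12 (interval -0.36 to 0.13), and mutant arrays spanned both.

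Mfap4, a protein of elastic microfibrils, read 374.3, 306.1 and 207 units in mutant colons, 162.2, 167.6 and 152.5 in heterozygous and 199.5, 203.9 and 196 in wild-type colons. The heterozygous arrays were the 3 lowest and the mutant arrays the 3 highest as deposited, while mutant 3 overlapped wild-type arrays after normalization. The log2 fold change was 0.80 in mutant against heterozygous colons (SE 0.227, unadjusted p = 0.00482, adjusted p = 0.523), 0.48 in mutant against wild-type colons (unadjusted p = 0.056, adjusted p = 0.998) and -0.31 in heterozygous against wild-type colons (unadjusted p = 0.197). Mutant against wild-type it was 0.24 without mutant 1 and 0.77 without mutant 3. The summed signal of 7 smooth muscle markers ran from 23322.1 to 27974.6 in mutant colons, from 21047.7 to 23288.4 in heterozygous and from 25804.6 to 26674.8 in wild-type colons. That of 6 fibroblast and matrix markers ran from 10008.5 to 10970.3 in mutant, 8923 to 11029.1 in heterozygous and 11368.2 to 12021.3 in wild-type colons. All 13 genes were bright enough to be tested and none passed an adjusted p of 0.05. In mutant against heterozygous colons 10 of them were higher, as Mfap4 was, and in mutant against wild-type colons 11 were lower, where Mfap4 was higher. All 7 smooth muscle and 4 of 6 fibroblast and matrix markers were lower in heterozygous against wild-type colons, as Mfap4 was; their part in the Mfap4 values was not tested.

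Mapk7, a kinase of growth factor signalling, read 184.6, 169.5 and 212.5 units in mutant colons, 156.7, 192.2 and 195.1 in heterozygous and 238.4, 199.2 and 227.5 in wild-type colons. Heterozygous arrays lay below wild-type arrays and mutant 3 lay within them, with log2 fold changes of -0.29 (unadjusted p = 0.0749) and -0.21 (unadjusted p = 0.185). Without wild-type 1 these were -0.16 and -0.08.

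B9d1, a protein of the gate at the base of the primary cilium, had the highest log2 fold change of the members in both carrier genotypes against wild-type. It read 122.1, 147.7 and 182.1 units in mutant colons, 101.4, 162.1 and 159.3 in heterozygous and 92.1, 102.4 and 95.2 in wild-type colons. The mutant arrays were above all wild-type arrays, while heterozygous 1 lay within the wild-type values as deposited and above them after normalization. Means were 150.6 ± 30.1 in mutant, 140.9 ± 34.3 in heterozygous and 96.57 ± 5.28 in wild-type colons (SD, n = 3 each). The log2 fold change was 0.55 in mutant (SE 0.154, unadjusted p = 0.00415, adjusted p = 0.998) and 0.42 in heterozygous against wild-type colons (SE 0.154, unadjusted p = 0.0198, adjusted p = 0.584). Between mutant and heterozygous colons it was 0.13, with an interval from -0.20 to 0.47. Without heterozygous 2 the value in heterozygous against wild-type colons was 0.33 (unadjusted p = 0.0844), and the p was also above 0.05 without heterozygous 3 or wild-type 3. As deposited, the array numbered 1 had the lowest B9d1 signal of each genotype, and also the highest beta-actin ratio. After normalization array 1 was still the lowest in mutant and heterozygous colons, while wild-type 1 was the highest wild-type array. The part of the beta-actin ratio in the spread was not tested.

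The start window of B9d1 (RefSeq, GRCm38.p6, chr11:61504894-61505193, plus strand) is shown as that of the member with the highest fold change, with its GC box, here on the minus strand as CCGCCC, in capitals.
B9d1: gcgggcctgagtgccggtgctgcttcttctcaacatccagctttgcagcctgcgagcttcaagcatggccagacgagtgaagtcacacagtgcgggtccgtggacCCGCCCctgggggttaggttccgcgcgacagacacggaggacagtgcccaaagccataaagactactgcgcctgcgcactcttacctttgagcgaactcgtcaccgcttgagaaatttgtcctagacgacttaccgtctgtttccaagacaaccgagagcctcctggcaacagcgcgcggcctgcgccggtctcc
It holds 24 CpG pairs and 0 CCAAT boxes.

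**Figure D4:**
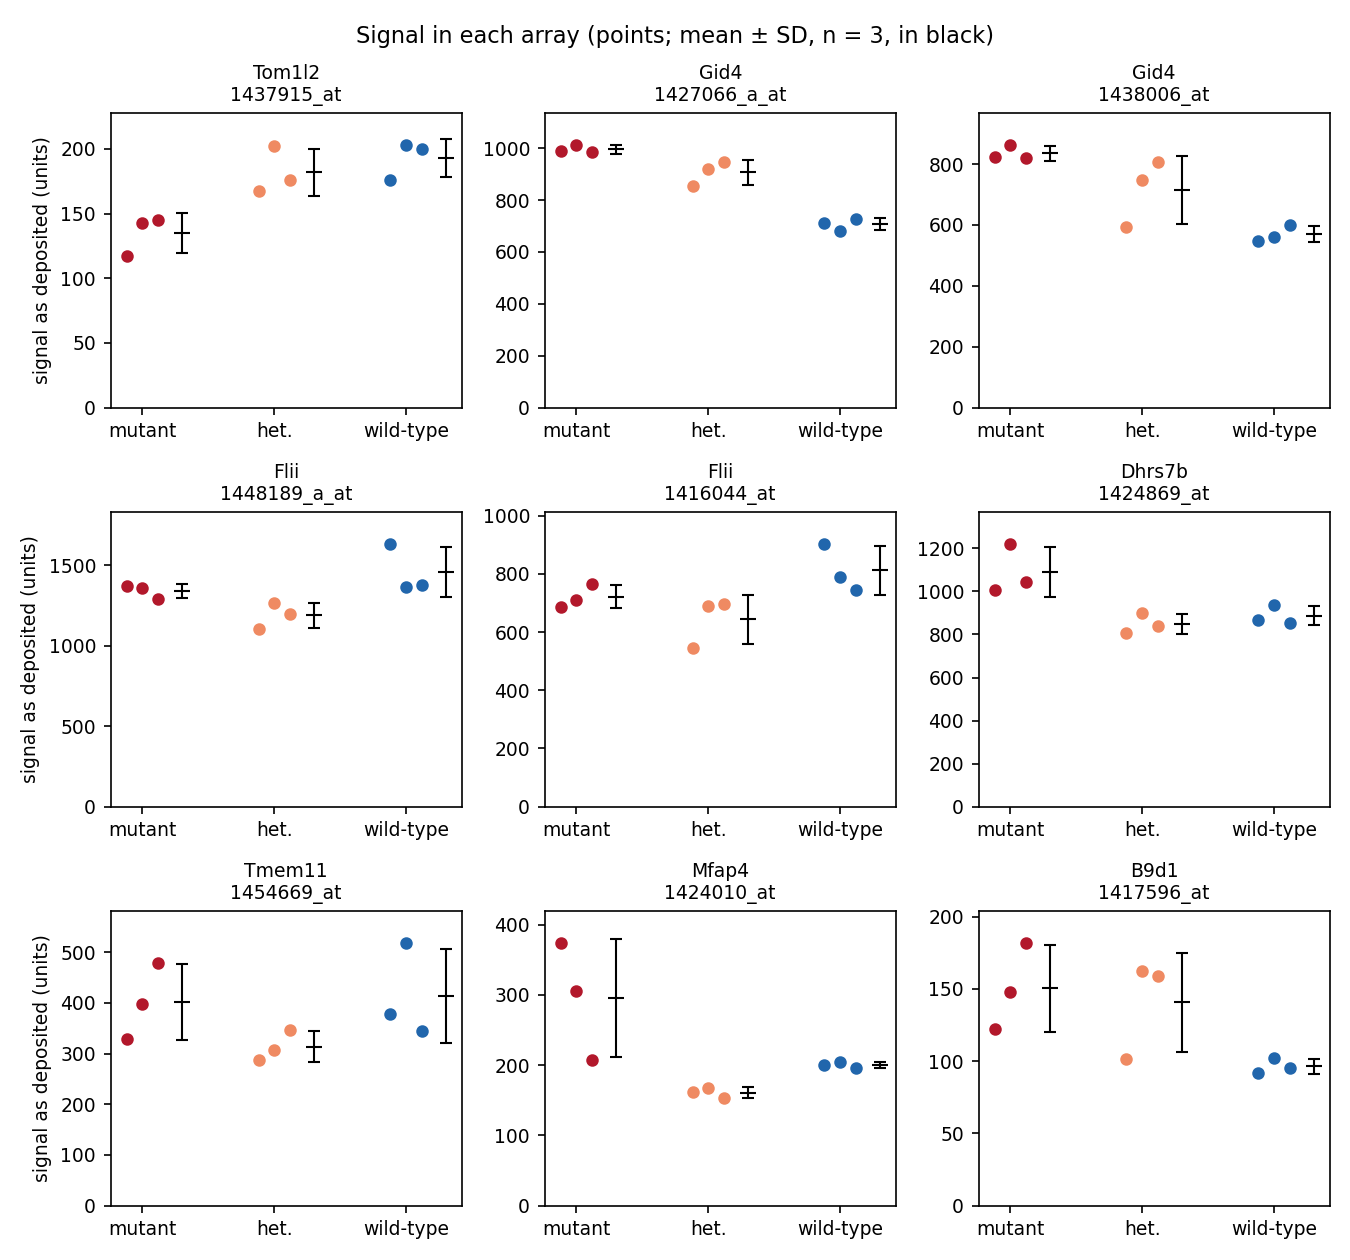
Deposited signal (y axis, from 0) in each array for the 9 member probe sets with an unadjusted p under 0.05 in any comparison, with mutant, heterozygous and wild-type colons from left to right and the mean ± SD of 3 arrays in black. Mutant arrays lie above all wild-type arrays for Gid4, B9d1, Dhrs7b and Mfap4 and below them for Tom1l2, and heterozygous arrays lie below all wild-type arrays for Flii and Mfap4.

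Toward the telomeric end the members were close to wild-type or imprecise. Epn2, an endocytic adaptor, had log2 fold changes of -0.26 and 0.22 on its probe sets in mutant against wild-type colons. Ulk2, a kinase that starts autophagy, had -0.06, -0.03 and 0.00 on its 3 probe sets in mutant against wild-type colons. On 1417846_at wild-type 1 read 34.4 units against 154.8 and 192.8 in the other wild-type arrays, and the SD within genotypes of 0.56 was the largest among members. The mutant arrays lay below the heterozygous arrays on 1417846_at, with a log2 fold change of -0.38 (interval -1.17 to 0.40). Akap10, an anchor of protein kinase A, was too dim to be tested, at 26.97 units on average in mutant, 41.03 in heterozygous and 36.73 in wild-type colons. Zswim7, a factor of homologous recombination, had the smallest SD within genotypes of the members, 0.06 on the log2 scale, with a log2 fold change of -0.07 in mutant (interval -0.31 to 0.18) and 0.01 in heterozygous colons (interval -0.24 to 0.26). Cenpv, a centromere protein, read 1075.9, 1082 and 815.2 units in mutant and 1054.4, 859.8 and 734.9 in wild-type colons, which overlapped.

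Beyond the members, 36 genes from Shmt1 on the telomeric side in the same gene order, Trim16 read 62.4, 70 and 65.4 units in mutant colons, 487.6, 649.4 and 593.7 in heterozygous and 881.4, 866.6 and 975.3 in wild-type colons on 1460629_at, with a log2 fold change of -3.47 in mutant against wild-type colons (adjusted p = 1.59e-07). On its other tested probe set, 1452362_at, the log2 fold change was -0.79 (adjusted p = 0.998). Between Shmt1 and Trim16, each with 1 probe set that passed in mutant against wild-type colons, none of the tested telomeric members passed, and their log2 fold changes in mutant against wild-type colons ran from -0.26 to 0.55.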

How the data were processed

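The table deposited by the authors holds linear intensities, 1 for each probe set in each array. GCOS is named in the submitters' processing notes; its version is not given in the sources used here. Trimmed means lay between 500.1 and 500.2 in every array. Here, 16 was added, log2 was taken and the arrays were quantile normalized without the 64 control probe sets, since medians of log2 signal spread over 0.294. Adding 16 understates the change of dim probe sets. Probe sets under the 40th percentile of the mean over all arrays, a signal of about 75.5, were left out, which kept 13576 of 22626.

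All 9 arrays were fitted together with limma 3.58.1 (lmFit, eBayes with a trend, R 4.3.3) without covariates, and p-values were adjusted by Benjamini-Hochberg over all probe sets tested. The fit was also run on simulated arrays that had no differences in RNA quality, and no result given here rests on that run. The design text names mutant and heterozygous against wild-type; mutant against heterozygous was added. The labels call the mice biological replicates; the number of arrays limits the precision. Intervals are 95% intervals of the fit, not adjusted.

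Symbols are those of GEO's platform table and may be outdated; of 22626 probe sets 20380 have 1 symbol, 691 several and 1555 none here. Gene order came from GRCm38.p6; the array names no build, so no gene positions are given, and start windows are RefSeq's own. Values in every array are given for the nearest members on each side, for member probe sets with an unadjusted p under 0.05, and for up to 12 whose arrays do not overlap those of wild-type. Members, lists and rules were chosen with earlier results of these data known. Python 3.11.15 and matplotlib 3.10.9 drew the figures.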

Additional observations from a re-analysis of the deposited data

How the results depend on the processing

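Of 882 log2 fold changes of named member probe sets (42 pairs of probe set and comparison under 21 alternatives), 10 values of 6 pairs had the sign opposite to the value reported, none of them called, and 4 passed an adjusted p of 0.05 in limma, all with array weights (both Gid4 probe sets against wild-type in mutant colons, 1427066_a_at and Tmem11 in heterozygous colons). In mutant against wild-type colons, array weights gave 9 calls over all probe sets, 2 of them members, and 9 members at an unadjusted p under 0.05. Leaving out the 3 arrays numbered 1 gave 9 calls and 13 members without overlap. Leaving out 1 array gave 2 to 4 calls, 4 to 8 members at that p and 6 to 11 members without overlap, the highest of the last 2 without wild-type 1. In heterozygous against wild-type colons, array weights gave 134 calls, 2 of them members, against 0 in the fit reported, and leaving out the arrays numbered 1 gave 14 members without overlap. Leaving out 1 array gave 0 to 3 calls (3 without heterozygous 3), 3 to 6 members at that p and 8 to 13 without overlap (13 without wild-type 1). In mutant against heterozygous colons, median centring, array weights, the replicate block and a fit of only the 2 genotypes each gave 5 members at that p, the last with 5 calls. Leaving out the arrays numbered 1 gave 14 members without overlap. Leaving out 1 array gave 1 to 7 calls, 2 to 6 members at that p and 9 to 15 without overlap (15 without mutant 3, 14 without heterozygous 1). Groups of fewer arrays overlap less by construction. Shares of all probe sets without overlap, or at that p, are not given here for these alternatives. The member counts under them therefore cannot be set beside the shares of the fit reported. With the replicate number as a block, mutant against wild-type colons gave 5 calls and mutant against heterozygous colons 8. Deviations of arrays numbered 1, 2 and 3 correlated at 0.292, 0.012 and 0.463 between mutant and wild-type colons, 0.313, 0.026 and 0.409 between heterozygous and wild-type colons, and -0.05, -0.059 and 0.219 between mutant and heterozygous colons. Not every pair of a comparison exceeded 0.1, so the numbers were not taken as pairs, although the beta-actin ratio was highest in array 1 and lowest in array 3 of each genotype. Dim members are limited by signal over background: 17 of the 45 probe sets were not tested.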
